A study of Mus musculus with 6 samples.

Results

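The genes described here encode the nuclear-coded subunits of respiratory complexes II and III, the complex IV subunits that are common to all tissues, cytochrome c, and factors that assemble these complexes. They were chosen by name, 34 genes in all, without the complex IV subunits that occur as tissue isoforms. A gene was read from its brightest probe set on a one-colour oligonucleotide array, and 33 of the 34 had a probe set named for them alone, with Cox7b the exception. Of these, 32 lay above the filter on dim probe sets and were tested, among 13658 genes tested of 18193 with a probe set. Cox7c, a small complex IV subunit, lay under the filter and was not tested. Its intensities were 101.3 and 64.96 in wild type, 92.96 and 92.16 in knockout-control cells, and 89.11 and 91.18 after knockdown. Its other probe set had no value on wild-type array 2 or on either knockout-control array. Whether these probe sets read the Cox7c RNA was not tested, so the values do not show that it was scarce or unchanged.

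The cells were mouse brown preadipocytes immortalised with the SV40 large T antigen and differentiated for 7 days. Brown fat cells burn fuel to make heat and are rich in mitochondria. The study measured 3 groups with 2 arrays each, which its design text calls biological replicates. The first group was wild type (WT), where the label of replicate 2 gives a mouse of mixed background. The other groups both lacked PGC-1α (PGC-1alpha -/-), and carried a control siRNA (called knockout-control here) or an siRNA against PGC-1β (called knockdown here). PGC-1α and PGC-1β are related transcriptional coactivators that work through nuclear receptors and nuclear respiratory factors on genes of the mitochondrion. The titles of the wild-type samples name no siRNA, so genotype, cell line and siRNA cannot be told apart in a comparison with wild type. The Y-linked gene Eif2s3y stood at 872.4 and 960.5 on the wild-type arrays and at 6.25 and 5.13 on the arrays of the other groups that had a value, so the wild-type cells also differed from the others in Y-linked signal. Whether each group was 1 clone, and which part of Ppargc1a was deleted, is not given in the sources used here.

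Respiratory complexes II to IV lie in the inner mitochondrial membrane. Complex II (succinate dehydrogenase) oxidises succinate and passes the electrons to coenzyme Q, complex III (the cytochrome bc1 complex) moves them from coenzyme Q to cytochrome c, and complex IV (cytochrome c oxidase) hands them to oxygen. Assembly factors insert cofactors such as heme, copper and iron-sulfur clusters or help subunits to join, and are not part of the finished complex.

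The median intensity of the arrays lay between 220.9 and 242.7. The 75th percentile lay between 547 and 599.6 on 5 arrays and at 502.8 on knockdown array 2. Ppargc1b, which encodes PGC-1β, stood at 2850 and 3162 on the wild-type arrays, 1862 and 2302 with the control siRNA, and 533.8 and 223.8 with the siRNA against it (knockdown step 5.53-fold lower, limma adjusted p = 0.022). The brightest probe set of Ppargc1a stood at 1338 and 1319, at 767.4 and 830.4, and at 1146 and 647.8 in the same order, a signal that checks little because the deleted part is unknown. The adipocyte markers Fabp4, Adipoq, Pparg, Cidec and Lpl, summed per array, lay between 41393 and 47738 on all 6 arrays, so every group carried the marker RNA of fat cells. Most of the sum came from the bright Fabp4, Adipoq and Lpl. Cidec rose between wild type and knockout-control (log2 fold change 0.83, limma adjusted p = 0.04). The others did not pass in that comparison, at 0.36 for Pparg, 0.01 for Lpl, -0.003 for Fabp4 and -0.21 for Adipoq. In the knockdown step none of these markers passed. The brown fat markers Ucp1, Cidea, Prdm16, Dio2, Elovl3 and Ppara summed to between 14107 and 15086 on the wild-type and knockout-control arrays and to 7501 and 6114 on the knockdown arrays. On the wild-type and knockout-control arrays most of that sum came from Ucp1 and Cidea. Of these 6, Ucp1, Cidea and Dio2 fell in the knockdown step, and Elovl3 rose between wild type and knockout-control. The others did not pass in the knockdown step, with log2 fold changes of -0.39 for Prdm16, -0.04 for Ppara and 0.17 for Elovl3.

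Between wild type and knockout-control the log2 fold changes of the 18 tested subunit genes, cytochrome c included, lay between -0.20 and 0.26, with a median of -0.07. Between knockout-control and knockdown cells all 18 lay below 0, between -0.87 and -0.17, with a median of -0.65. The mean intensity in knockdown cells was 55% to 88.6% of that in knockout-control, with a median of 63.9%. The 14 assembly factors ranged from -0.60 to 0.14 in the same step, with a median of -0.34. Whether the medians of subunits and assembly factors differ was not tested. Fewer fat cells and less RNA per cell cannot be told apart in these samples, which were RNA of whole cultures.

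**Figure D1:**
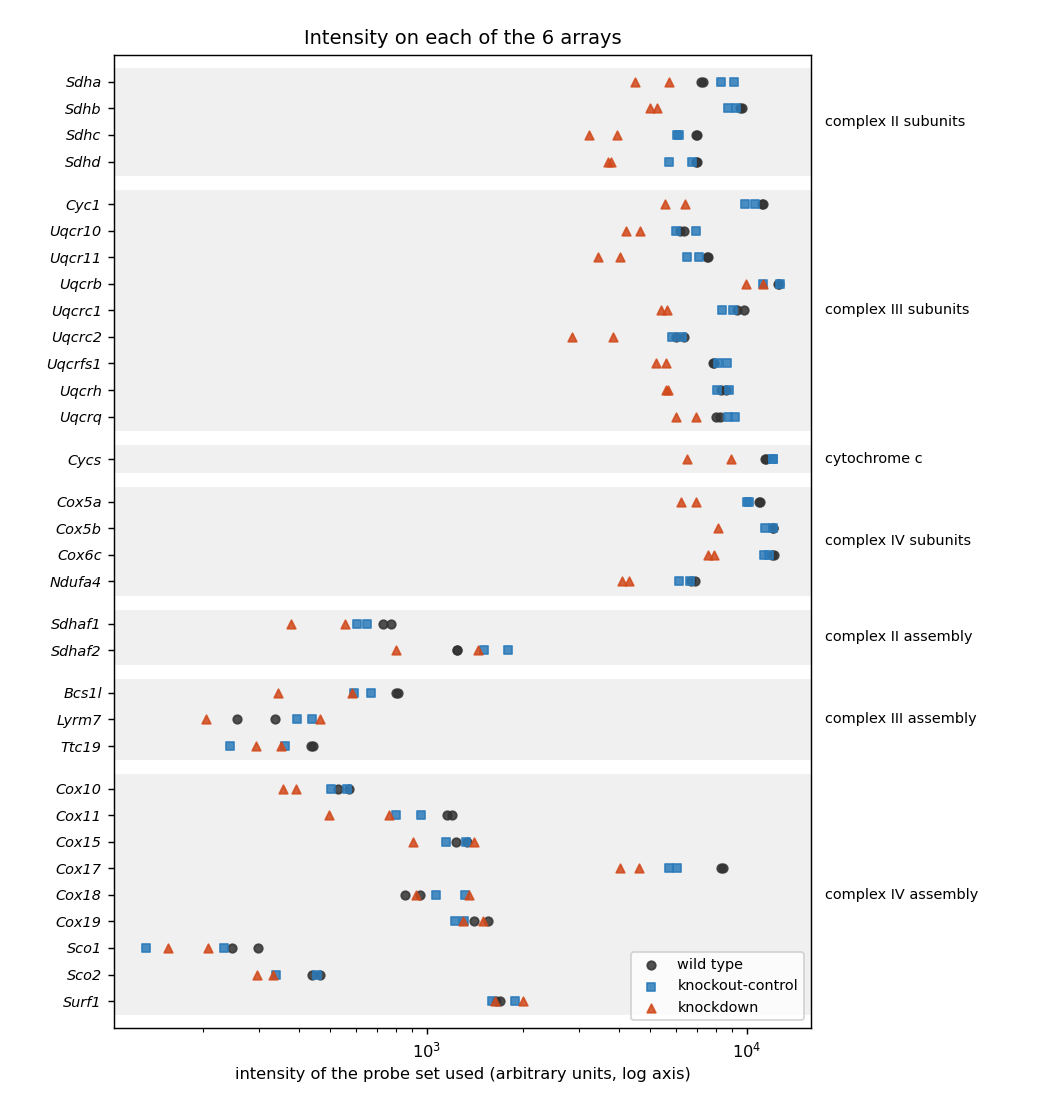
Intensity of the probe set used for each of 32 genes (x axis, arbitrary units, log scale), grouped by role, with 1 point per array and 2 arrays in each of 3 groups. The knockdown points (triangles) of 16 of the 17 subunit genes with a value on all arrays lie below both knockout-control points, and Uqcrb is the exception. Intensities of different genes are not comparable as RNA amounts.

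Promoter sequences are shown for the 4 called genes that ranked highest by number of calls and then by adjusted p and that held a searched motif, because these genes were lower together in the knockdown cells. The sequences run from 250 bases before to 50 bases after the start of the gene and come from RefSeq on GRCm38.p6, 5′ to 3′ on the strand of the gene. Capitals mark matches, on both strands, to the core motif of nuclear respiratory factor NRF1, TNAAGGTCA (estrogen-related receptors, ERR), CCGGAAG (ETS factors such as GABP) or AAGATGGCG (YY1). The window of Sdhb lies at chr4:140961021-140961320 on the plus strand, that of Uqcr11 at chr10:80406772-80407071 on the minus strand, that of Sdhd at chr9:50603800-50604099 on the minus strand and that of Uqcrc1 at chr9:108936398-108936697 on the plus strand.
Sdhb: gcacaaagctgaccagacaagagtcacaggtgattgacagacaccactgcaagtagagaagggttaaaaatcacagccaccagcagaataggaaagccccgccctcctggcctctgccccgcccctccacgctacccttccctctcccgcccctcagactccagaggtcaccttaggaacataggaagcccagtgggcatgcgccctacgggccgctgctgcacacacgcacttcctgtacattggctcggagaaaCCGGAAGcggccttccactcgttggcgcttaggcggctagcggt
Uqcr11: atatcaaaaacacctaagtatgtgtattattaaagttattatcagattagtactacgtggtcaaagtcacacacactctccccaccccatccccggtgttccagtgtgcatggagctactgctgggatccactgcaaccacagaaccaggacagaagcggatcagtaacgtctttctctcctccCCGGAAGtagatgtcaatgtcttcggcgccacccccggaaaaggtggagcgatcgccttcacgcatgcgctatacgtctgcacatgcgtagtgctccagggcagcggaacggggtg
Sdhd: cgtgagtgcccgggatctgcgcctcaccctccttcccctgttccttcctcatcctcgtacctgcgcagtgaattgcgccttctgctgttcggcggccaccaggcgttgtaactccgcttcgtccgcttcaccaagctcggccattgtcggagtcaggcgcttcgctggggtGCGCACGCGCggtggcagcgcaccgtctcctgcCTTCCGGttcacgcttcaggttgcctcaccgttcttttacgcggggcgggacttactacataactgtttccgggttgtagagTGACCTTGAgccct
Uqcrc1: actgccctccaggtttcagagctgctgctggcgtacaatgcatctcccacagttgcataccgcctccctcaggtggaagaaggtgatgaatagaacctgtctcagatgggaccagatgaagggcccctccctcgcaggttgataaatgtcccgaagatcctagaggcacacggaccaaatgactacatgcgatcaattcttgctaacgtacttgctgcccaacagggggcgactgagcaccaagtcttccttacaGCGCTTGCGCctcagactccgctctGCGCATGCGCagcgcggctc
Sdhb and Uqcr11 each held 1 ETS match, Sdhd held an NRF1, an ETS and an ERR match, and Uqcrc1 held 2 NRF1 matches, and no matches overlapped in these windows. A promoter was found in the table for 26 of the 34 genes. The ETS motif was in 11 of the 26, 4 of 14 subunit genes and 7 of 12 assembly factors, beside 8.86% of all 32851 promoters of the same length. The NRF1 motif was in 3, namely Sdha, Sdhd and Uqcrc1, beside 4.6% of all promoters. The ERR motif was in 1, Sdhd, beside 1.28%, and the YY1 motif in 1, Cox10, beside 1.4%. A gene was counted if any of its promoter windows matched, while the percentages count every window and are not limited to the genes tested here. The counts and the percentages are therefore not in like units, and enrichment was not tested. A match describes the letters of the window and is not evidence that a factor binds there.

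The first comparison set knockout-control against wild type, where PGC-1α genotype, cell line and siRNA differed together. Ppargc1b itself was lower in knockout-control with no overlap, but did not pass (log2 fold change -0.53, limma adjusted p = 0.397). None of the 32 genes passed in either direction in limma at an adjusted p under 0.05, where 2.55% of all genes tested were called higher and 3.5% lower. At an unadjusted p under 0.05, 2 of the 32 passed, beside 21.1% of all genes. The median log2 fold change of the 32 was -0.08, beside 0.00 over all genes tested. The 2 groups did not overlap for 23 of the 32, with 7 higher and 16 lower, where 28% of all genes were higher and 30.1% lower. For the complex II subunit Sdha the values were 7181 and 7315 in wild type and 9110 and 8324 in knockout-control, the highest fold change among the subunits (0.26 ± 0.16 SE, limma adjusted p = 0.405). Both knockout-control arrays lay above both wild-type arrays. Sdhc, a membrane anchor of complex II, had the lowest fold change among the subunits (-0.20 ± 0.15, limma adjusted p = 0.521), from 7001 and 6962 to 6134 and 6047.

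The widest differences in that comparison were among the assembly factors. Cox17, a copper chaperone that delivers copper for complex IV, stood at 8285 and 8408 in wild type, then 6051 and 5730 in knockout-control (-0.50 ± 0.14, limma adjusted p = 0.0816). The groups did not overlap and the difference did not pass with 3 groups in the fit. It passed in a fit of only the 2 groups compared (limma adjusted p = 0.0309) and after quantile normalization (limma adjusted p = 0.0302). A further probe set of Cox17 read 366.5 and 308.8, then 293.8 and 311.2, and differed by -0.14. Sco1, another copper chaperone of complex IV, stood at 296.5 and 245.4 in wild type, then 132.7 and 232 in knockout-control (-0.53 ± 0.24, limma adjusted p = 0.243). Ttc19, a factor that takes part in the late assembly and quality control of complex III, stood at 436.1 and 442.4 and then at 243.1 and 360.5 (-0.52 ± 0.19, limma adjusted p = 0.165). For both genes each knockout-control array was below each wild-type array, and the knockout-control arrays differed widely from each other.

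The highest values of this comparison were those of Lyrm7 (0.45 ± 0.31, limma adjusted p = 0.457), which guards the iron-sulfur protein of complex III before its insertion, of Sdhaf2 (0.40 ± 0.25, limma adjusted p = 0.413), which attaches flavin to Sdha, and of Cox18 (0.38 ± 0.20, limma adjusted p = 0.336), which moves part of the complex IV subunit COX2 across the membrane. Lyrm7 stood at 336.3 and 256 in wild type, then 436.8 and 392.5 in knockout-control. Sdhaf2 stood at 1243 and 1241 and then at 1509 and 1798, and Cox18 at 852.8 and 955.2 and then at 1066 and 1316. The groups did not overlap for any of these 3 genes. The standard errors of assembly factors lay between 0.14 and 0.31, against 0.14 to 0.17 for subunits.

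The second comparison kept the PGC-1α genotype fixed and set cells with the siRNA against PGC-1β beside cells with the control siRNA. Lower PGC-1β, other effects of that siRNA and other differences between these cells cannot be told apart in it. Of the 32 genes, 0 rose and 2 fell in limma, Sdhb and Uqcr11, where 0.271% of all genes tested were called higher and 0.564% lower. Over all genes these were 37 higher and 77 lower calls, a split that became 192 and 189 after quantile normalization and 176 and 202 with 75th percentile scaling. The median log2 fold change was -0.54, beside -0.01 over all genes tested, and 28 of the 32 lay below 0, beside 51.1% of all genes. At an unadjusted p under 0.05, 21 of the 32 passed, beside 14.1% of all genes. Of 31 genes with a value on all arrays of both groups, 0 were higher and 23 lower with no overlap, where 17.1% of all genes were higher and 21.4% lower. Among subunits 16 of 17 did not overlap and all 16 were lower, and among assembly factors 7 of 14.

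Sdhb carries the iron-sulfur clusters of complex II. Its values were 9556 and 9641 in wild type, 9260 and 8751 with the control siRNA, and 5260 and 4981 with the PGC-1β siRNA. Both knockdown arrays lay far below the other 4, which nearly coincided. In the knockdown step Sdhb fell 1.75-fold (-0.81 ± 0.14 SE on the log2 scale, limma adjusted p = 0.0443). Uqcr11, a small subunit of complex III, stood at 7587 and 7517 in wild type, 7068 and 6509 with the control siRNA, and 4027 and 3440 with the PGC-1β siRNA. It fell 1.82-fold (-0.86 ± 0.15, limma adjusted p = 0.0453), with a knockdown mean of 55% of that in knockout-control. Both calls were near the threshold. They were lost without any 1 of the arrays other than knockdown array 1, where fewer of all genes were called lower too. Without knockdown array 1 more of all genes were called lower. Over all settings run, the log2 fold change lay between -0.85 and -0.69 for Sdhb and between -0.97 and -0.74 for Uqcr11. Leaving out an array leaves 1 in its group, here and in the same check against wild type. The spread of that group is then assumed to be that of the others. For the knockdown step, leaving out either wild-type array gives the same fit as comparing only the 2 groups.

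The 3 other complex II subunits lay close to Sdhb. Sdha, the flavoprotein that oxidises succinate, went from 9110 and 8324 in knockout-control to 5699 and 4474 in knockdown cells (-0.78 ± 0.16, limma adjusted p = 0.0681). Sdhc went from 6134 and 6047 to 3924 and 3219 (-0.77 ± 0.15, limma adjusted p = 0.0615). Sdhd, the other membrane anchor, stood at 6945 and 7008 in wild type, 6736 and 5716 in knockout-control and 3764 and 3695 in knockdown cells (-0.73 ± 0.15, limma adjusted p = 0.0643). For all 4 genes both knockdown arrays lay below all other arrays, and the median of the 4 was -0.78. A further probe set of Sdhd, at 1765 and 2735 in knockout-control and 1288 and 523.8 in knockdown cells, differed by -1.38.

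In complex III the 9 subunits ranged from -0.87 to -0.17 with a median of -0.64. Uqcrc2, a core protein, had the lowest value (-0.87 ± 0.17, limma adjusted p = 0.0615), at 6007 and 6355 in wild type, 5834 and 6261 in knockout-control and 3806 and 2840 in knockdown cells. Its partner Uqcrc1 stood at 9803 and 9299, 9084 and 8375, and 5637 and 5391 in the same order (-0.66 ± 0.14, limma adjusted p = 0.0725). Neither overlapped between knockout-control and knockdown cells. Cyc1, the cytochrome c1 that passes electrons to cytochrome c, stood at 11246 and 11133 in wild type, 10613 and 9880 in knockout-control and 6420 and 5561 in knockdown cells (-0.77 ± 0.15, limma adjusted p = 0.0564). Uqcrfs1, the Rieske iron-sulfur protein, stood at 7860 and 7892, 8674 and 8157, and 5581 and 5190 (-0.64 ± 0.14, limma adjusted p = 0.0775). The knockdown arrays were the lowest for both of these catalytic subunits.

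Among the smaller complex III subunits, Uqcrh, the hinge protein that helps cytochrome c1 to bind cytochrome c, stood at 8605 and 8286 in wild type, 8819 and 8049 in knockout-control and 5592 and 5678 in knockdown cells (-0.58 ± 0.14, limma adjusted p = 0.101). Uqcr10 and Uqcrq had log2 fold changes of -0.55 ± 0.15 and -0.46 ± 0.14 and neither overlapped between the groups. Uqcrb was the subunit with the smallest difference (-0.17 ± 0.15, limma adjusted p = 0.661). It stood at 12507 and 12576 in wild type, 12657 and 11250 in knockout-control and 9918 and 11259 in knockdown cells, so the groups overlapped. A further probe set of Uqcrb gave another picture, at 5658 and 6586 in knockout-control and 3888 and 3577 in knockdown cells, a difference of -0.71. The highest intensity of any probe set on an array was 14016 to 15531, and how far a probe set as bright as the one used for Uqcrb still responds to more RNA was not tested.

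Cycs, the soluble carrier cytochrome c, stood at 11432 and 11477 in wild type, 12060 and 12074 in knockout-control and 8921 and 6495 in knockdown cells. The knockdown arrays lay below the other 4 but differed from each other, and the difference did not pass (-0.66 ± 0.17, limma adjusted p = 0.132). The 4 tested complex IV subunits lay between -0.61 and -0.53. Cox5a stood at 10969 and 10903 in wild type, 10134 and 10038 in knockout-control and 6938 and 6238 in knockdown cells (-0.61 ± 0.14, limma adjusted p = 0.0876). Cox6c stood at 11966 and 12158, 11754 and 11328, and 7910 and 7578 in the same order (-0.57 ± 0.14, limma adjusted p = 0.0974). Ndufa4, named for complex I but since assigned to complex IV, stood at 6890 and 6701, 6655 and 6142, and 4298 and 4072 (-0.61 ± 0.14, limma adjusted p = 0.0876). Both knockdown arrays were the lowest for each of these 3 genes. The probe set used for Cox5b had no value on knockdown array 2, so its knockdown value rests on 1 array, at 8105. It stood at 12083 and 11419 in knockout-control and 12049 and 12068 in wild type (-0.53 ± 0.18, limma adjusted p = 0.239). Further probe sets of Cox5b above the filter had values on both knockdown arrays and differed by -0.53, -0.43 and -0.80. On each of them both knockdown arrays lay below both knockout-control arrays.

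**Figure D2:**
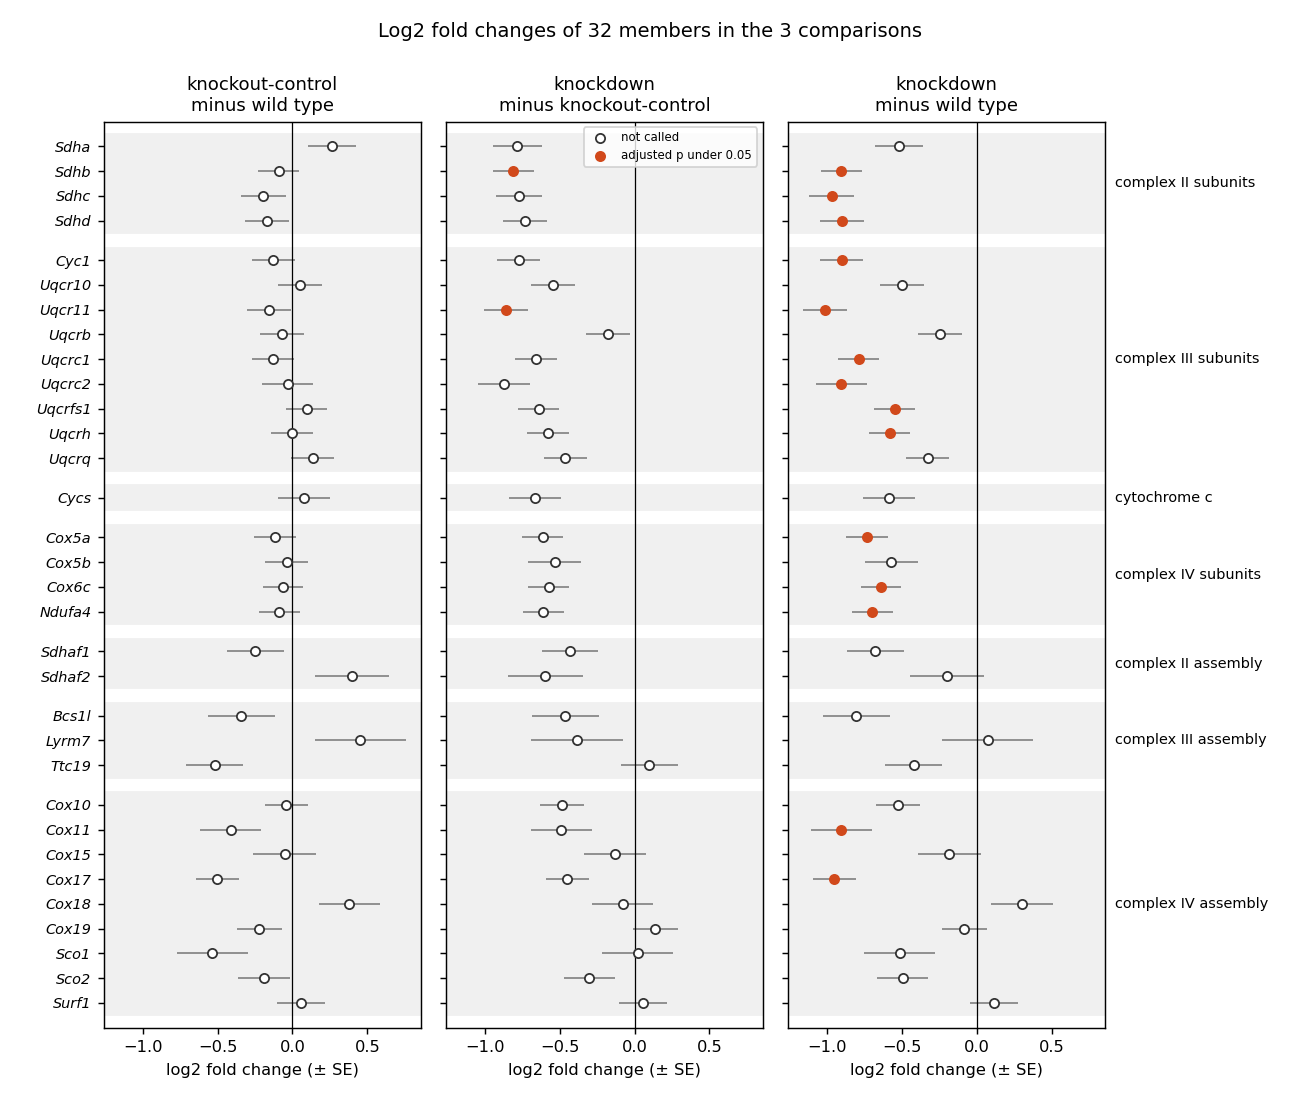
Log2 fold changes of the 32 genes on the log2(intensity + 32) scale (x axis) with standard errors from limma, in 3 panels for the 3 comparisons. Filled points passed at an adjusted p under 0.05. The subunits lie around 0 in the left panel and between -0.87 and -0.17 in the middle panel, while the assembly factors are spread wider.

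No assembly factor passed between knockout-control and knockdown cells, and the 14 had limma adjusted p-values between 0.179 and 0.98. Sdhaf2 had the lowest value (-0.60 ± 0.25, limma adjusted p = 0.326), at 1509 and 1798 in knockout-control and 1446 and 803.7 in knockdown cells. Another probe set of Sdhaf2 went the other way, with 1007 and 1111 in knockout-control and 1307 and 1218 in knockdown cells, a difference of 0.25. Cox10, which makes the heme A precursor of complex IV, was the assembly factor with the lowest adjusted p (-0.48 ± 0.14, limma adjusted p = 0.179), at 571.4 and 527.2 in wild type, 503.5 and 563.4 in knockout-control and 354.7 and 389.4 in knockdown cells. Its knockdown arrays lay below the other 4 and close together, and a further probe set differed by -0.60. Cox11, which takes part in inserting copper into complex IV, stood at 1196 and 1161 in wild type, 803.5 and 956.3 in knockout-control and 761.8 and 495.8 in knockdown cells (-0.49 ± 0.20, limma adjusted p = 0.33). Cox17 stood at 4603 and 4024 in knockdown cells, below both knockout-control arrays (-0.45 ± 0.14, limma adjusted p = 0.208). Its further probe set differed by 0.12.

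At the other end were Cox19, Ttc19 and Surf1. Cox19, a small protein of the copper pathway of complex IV, stood at 1406 and 1558 in wild type, 1226 and 1306 in knockout-control and 1501 and 1297 in knockdown cells (0.14 ± 0.15, limma adjusted p = 0.741). Ttc19 stood at 350.2 and 291.8 in knockdown cells (0.10 ± 0.19, limma adjusted p = 0.868). Surf1, a factor for an early step of complex IV assembly whose human gene is mutated in Leigh syndrome, stood at 1643 and 1689, 1600 and 1884, and 1992 and 1637 in the 3 groups (0.06 ± 0.16, limma adjusted p = 0.915). The groups overlapped between knockout-control and knockdown for all 3. The values of the remaining assembly factors were -0.43 for Sdhaf1, -0.46 for Bcs1l, -0.38 for Lyrm7, -0.30 for Sco2, -0.13 for Cox15, -0.08 for Cox18 and 0.02 for Sco1, which stood at 206.9 and 155.4 in knockdown cells. Sdhaf1 helps to give Sdhb its iron-sulfur clusters, Bcs1l inserts the Rieske protein into complex III, Cox15 makes heme A and Sco2 is a copper chaperone like Sco1.

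The 2 knockdown arrays were also compared with each other. Against the mean of knockout-control, the subunits had a median of -0.60 on knockdown array 1 and -0.69 on knockdown array 2. Array 1 lay below both knockout-control arrays for 18 of 18 subunit genes, beside 30.1% of all genes, and array 2 for 16 of 17, beside 49.3%. The assembly factors had a median of 0.02 on array 1 and of -0.43 on array 2, and all genes tested had medians of 0.07 and -0.09. Array 2 was lower than array 1 for 13 of 14 assembly factors (median difference -0.44), 14 of 17 subunits (-0.10) and 9946 of 13433 genes (-0.20). Whether these medians differ between the classes was not tested. Lyrm7 was the widest case, with 463.7 on array 1 and 204.5 on array 2. In the knockout-control group array 2 was higher than array 1 for 12 of 14 assembly factors and 9449 of 13575 genes, and lower for 16 of 18 subunits. The part of these array differences in the fold changes was not tested beyond leaving out each array. Without knockdown array 2 the medians were -0.60 for subunits and 0.02 for assembly factors, and without knockdown array 1 they were -0.69 and -0.43.

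**Figure D3:**
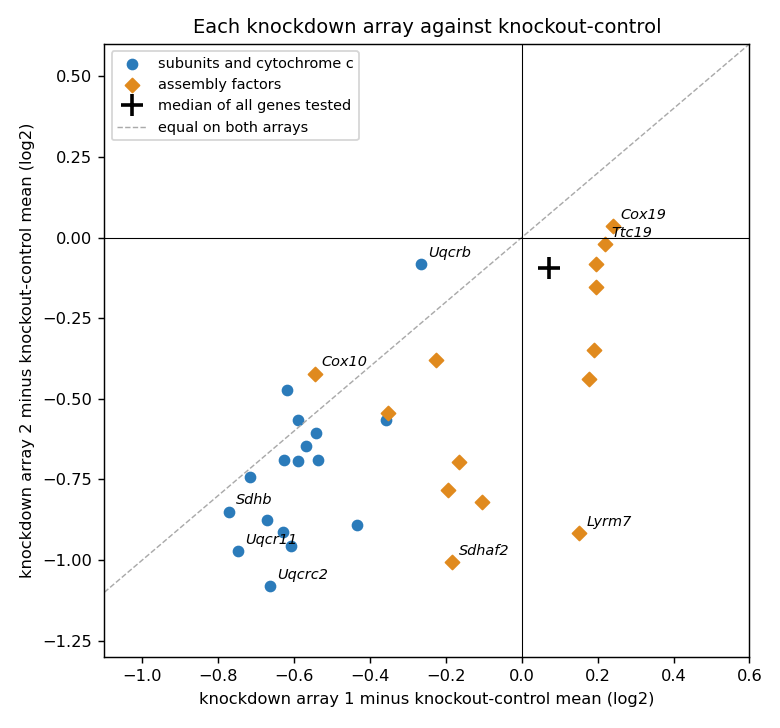
Log2 difference of knockdown array 1 (x axis) and knockdown array 2 (y axis) from the mean of the 2 knockout-control arrays, with 1 point per gene, circles for subunits and cytochrome c and diamonds for assembly factors. The cross marks the median of all genes tested, at 0.07 and -0.09, and points below the dashed line of equality were lower on array 2, as were 13 of 14 assembly factors, 14 of 17 subunits and 9946 of 13433 genes. Cox5b, with no value on array 2, is not drawn.

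Further probe sets gave a check that the choice of the brightest one did not use. There were 26 above the filter for 16 of the genes, and 20 of them belonged to subunit genes. In knockdown against knockout-control all 20 lay below 0, with a median of -0.71. Of the 26, 23 had the same sign as the probe set used and 3 the opposite sign, namely 1 each of Sdhaf2, Cox15 and Cox17, all assembly factors. Uqcrh differed by -1.03 on its further probe set against -0.58 on the one used. Between wild type and knockout-control, 14 of the 26 lay below 0 and 12 above, with a median of -0.01. Some further sets of subunit genes lay outside the range of the subunit probe sets used. One of Uqcr10 read 1182 and 1056 in wild type and 1924 and 2249 in knockout-control (0.88), one of Uqcrq differed by 0.39, and that of Sdhd differed by -0.50. Probe sets of 1 gene share the RNA and the arrays and are not independent measurements.

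**Figure D4:**
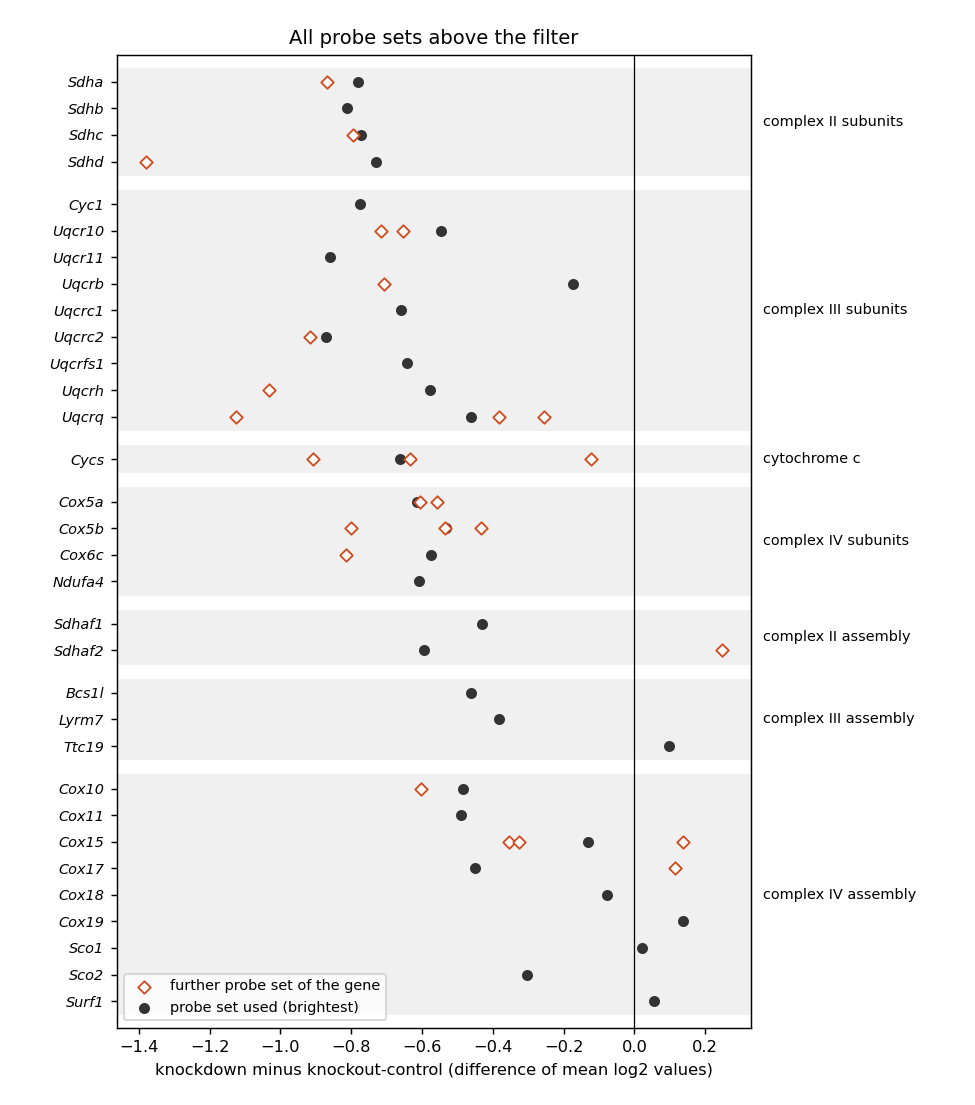
Knockdown minus knockout-control, as a difference of mean log2 values (x axis), for every probe set above the filter of the 32 genes, with the probe set used as a filled circle and further ones as open diamonds. All probe sets of subunit genes lie left of 0, and the open diamonds right of 0 belong to Sdhaf2, Cox15 and Cox17.

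The third comparison, knockdown against wild type, spanned both coactivators and also the cell line. It shares its arrays with the others. Of the 32 genes, 0 rose and 14 fell in limma, where 4% of all genes tested were called higher and 6% lower. These were 546 higher and 819 lower calls over all genes, and 1269 and 1032 after quantile normalization or 1135 and 1106 with 75th percentile scaling. At an unadjusted p under 0.05, 22 of the 32 passed, beside 25.5% of all genes. The groups did not overlap for 25 of 31 genes, all lower, where 24.6% of all genes were higher and 30.4% lower. The median log2 fold change was -0.58, beside -0.03 over all genes tested. The 14 comprised 12 of the 18 subunit genes and 2 of the 14 assembly factors. The calls were lost without wild-type array 1 or without wild-type array 2, where fewer of all genes were called too. These fits leave 1 array in the wild-type group, and the median stayed at -0.56 and -0.60.

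The 12 subunit genes that fell between wild type and knockdown cells were Sdhb, Sdhc, Sdhd, Uqcrc1, Uqcrc2, Uqcrfs1, Uqcrh, Uqcr11, Cyc1, Cox5a, Cox6c and Ndufa4. Uqcr11 fell most, 2.02-fold (-1.01 ± 0.15, limma adjusted p = 0.00525), followed by Sdhc (1.96-fold) and Uqcrc2 (1.87-fold). Uqcrfs1, at 1.46-fold and a limma adjusted p of 0.0424, was nearest to the threshold. The subunit genes that did not pass were Sdha (-0.52 ± 0.16), Uqcrb (-0.25 ± 0.15), Uqcrq (-0.33 ± 0.14), Uqcr10 (-0.50 ± 0.15), Cycs (-0.59 ± 0.17) and Cox5b (-0.57 ± 0.18). The assembly factors that fell were Cox17 (1.93-fold, -0.95 ± 0.14, limma adjusted p = 0.00603) and Cox11 (1.87-fold, -0.90 ± 0.20, limma adjusted p = 0.0295). With the mean of its probe sets Cox11 did not pass (-0.31, limma adjusted p = 0.689): its other probe set, under the filter, differed by 0.28. The Cox11 call was also lost without knockdown array 2 (limma adjusted p = 0.0506). For Cox17 both steps had similar values on the probe set used, -0.50 and -0.45. Its further, dimmer probe set differed by -0.14 and 0.12 in these steps, and by -0.02 between wild type and knockdown cells. Sdhaf1, Bcs1l and Cox10 came next (limma adjusted p = 0.0579, 0.0574 and 0.0559), and Cox18 was the highest of the 32 (0.30 ± 0.20, limma adjusted p = 0.405), at 1357 and 924 on knockdown arrays 1 and 2.

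Other genes of the respiratory chain were read from lists. Of 32 tested complex I subunits, 1 fell between knockout-control and knockdown cells, Ndufs1 (1.87-fold, limma adjusted p = 0.0406), 0 rose, and all 32 lay below 0 with a median of -0.61. Against wild type 22 fell in the knockdown cells, namely Ndufa1, Ndufa5, Ndufa8, Ndufa9, Ndufa10, Ndufa12, Ndufa13, Ndufab1, Ndufb2, Ndufb3, Ndufb5, Ndufb6, Ndufb7, Ndufb8, Ndufb10, Ndufc1, Ndufs1, Ndufs3, Ndufs4, Ndufs5, Ndufs7 and Ndufv2. Between wild type and knockout-control 0 passed, with a median of -0.06. Of 15 tested ATP synthase subunits, 0 passed in the knockdown step, with a median of -0.58, and 9 fell against wild type (Atp5c1, Atp5e, Atp5g1, Atp5h, Atp5j2, Atp5k, Atp5l, Atp5o and Atp5pb). Atp5g1 was also the 1 gene of these lists that fell between wild type and knockout-control (1.58-fold, limma adjusted p = 0.0312). Among 18 further assembly factors of complexes II to IV, 0 passed in the knockdown step, with a median of -0.16. Against wild type 7 of these fell in the knockdown cells, Uqcc1 (2.29-fold), Coa5 (2.02-fold), Hccs (1.98-fold), Cmc1, Cox20, Lrpprc and Coa7, and the median of the 18 between wild type and knockout-control was already -0.36. Among 11 complex IV isoform subunits, Cox7a1, the heart, muscle and brown fat form, fell 2.46-fold in the knockdown step (limma adjusted p = 0.0193). Cox4i1 and Cox8b stood at -0.30 and 0.52 in that step and did not pass. Cox6b1, Cox6b2 and Cox7a1 fell against wild type.

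Markers of other cell types were summed per array without missing cells, and some moved with the same groups. The summed intensity of 5 preadipocyte and fibroblast markers with a probe set lay between 1193 and 1585 on the wild-type and knockout-control arrays and at 2658 and 2352 on the knockdown arrays. Of the 4 tested, Dlk1 rose in the knockdown step, from 384.4 and 437.9 to 1609 and 1452. The other tested markers did not pass in that step, with log2 fold changes of 0.52 for Pdgfra, -0.40 for Pdgfrb and -0.25 for Thy1. The sum of 5 smooth muscle and pericyte markers lay at 5399 and 4964 in wild type, 3405 and 3338 in knockout-control and 2835 and 2957 on the knockdown arrays, and Acta2, Tagln and Cspg4 fell between wild type and knockout-control. Myh11, the other tested marker of that list, did not pass and went from 354.9 and 364.4 to 437.6 and 433 (0.25). Macrophage, endothelial and skeletal muscle markers summed to 3061 to 3766, 615 to 714.4 and 1463 to 2014 over the 6 arrays, and the endothelial markers Pecam1 and Cdh5, the muscle genes Myog and Myh1 and the macrophage gene Cd68 lay under the filter. Cd68 was not tested, and stood at 98.9 and 111.2 in wild type, 79.87 and 117.3 in knockout-control cells, and 213.4 and 200.5 after knockdown, where both arrays were the highest. No marker was listed at exactly 0. The part of these markers in the values of the respiratory genes was not tested.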

How the data were processed

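Total RNA of 6 samples was measured, 1 array each. The table that the authors deposited holds linear intensity values for 45037 probe sets. How these were summarised, scaled or corrected for background is not given in the sources used here, and they were not scaled again. Of the cells, 5285 held the word null and 870 were empty, and both count as missing. Symbols came from the platform annotation, updated by Entrez identifier (GRCm38.p6 gene table). One symbol was given for 34945, several for 932 and none here for 9160, and only the first kind was used. The brightest probe set by mean log2 value stood for a gene. Genes below 7.61 on this scale (intensity 163.6, the 40th percentile over probe sets) were not tested.

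Values were analysed as log2(intensity + 32), a scale on which the change of dim genes is understated. One limma model (version 3.58.1, R 4.3.3) with group means was fitted to all 6 arrays, with 3 residual and 5.45 prior degrees of freedom, and p-values were two-sided and adjusted by Benjamini-Hochberg over all genes. Fold changes and their SE are from this fit. The number of arrays limits the precision, p-values measure the spread between these arrays, and exact permutation of 2 against 2 reaches p = 0.333 at best, so it was not used. The procedure was tested on simulated data for the knockdown step. Each gene was drawn on its own and 200 genes were changed, so shifts shared by many genes of an array were left out. Of genes given a log2 change of 1, 60.3% were called, with 89.4% at a change of 2 and 97% at 3. The calls also included 6 unchanged genes. How often a change smaller than 1 is called was not tested. All 34 genes are named, with values of each array for called genes, for the 3 highest and 3 lowest fold changes of each comparison, and for the 3 brightest and 3 dimmest in wild type. Called genes of the other respiratory lists are named. The genes and lists were chosen with earlier results of these data known. The alternatives were other scalings, filters, pseudocount, probe-set rule, trend and robust settings, a replicate block, 2-group fits and leaving out each array.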

Additional observations from a re-analysis of the deposited data

How the results depend on the processing

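The count of genes that fell between knockout-control and knockdown cells, 2, was 6 after quantile normalization, 6 with 75th percentile scaling (chosen after seeing the data), 18 with eBayes trend and robust options, and 8 when the filter was raised to the 60th percentile. It was 0 with no filter, with a pseudocount of 1, with probe sets averaged per gene, with only the 2 groups compared and with the replicate block, and 0 to 16 with each array left out. Against wild type the count of 14 was 7 with no filter, 9 with the replicate block, 22 with trend and robust settings, and 0 to 19 with each array left out. Between wild type and knockout-control the count of genes that fell was 0, and 1 after quantile normalization, with 75th percentile scaling, with trend and robust settings and with only those groups. Calls over all genes were 348 higher and 478 lower in the main fit of that comparison. In those settings they were 725 and 928, 662 and 969, 427 and 605, and 719 and 1067 in the same order. Counts of genes that rose were 0 in every setting run. The medians over the subunits and assembly factors together kept their sign in every setting run. That of the knockdown step, -0.54, ranged from -0.69 to -0.48 when each array was left out, that against wild type, -0.58, from -0.69 to -0.53, and was -0.47 after quantile normalization, and that between wild type and knockout-control, -0.080, from -0.107 to -0.0643, and was -0.0515 after quantile normalization. Over all genes, the 37 higher and 77 lower calls of the knockdown step were 2 and 7 with no filter, 1 and 12 with probe sets averaged, 8 and 14 with the block, 17 and 30 with only 2 groups, 56 and 143 at the higher filter and 85 and 240 with trend and robust options. The causes were not tested. Deviations of same-numbered arrays correlated over genes at 0.20, -0.15 and -0.50 between the groups. Each group gave only 1 difference between its arrays, so these values cannot tell whether arrays with the same number were paired. The median with the replicate block was -0.55 in the knockdown step. The bright probe sets of subunits and the dim ones of several assembly factors may limit the classes in different ways, which was not tested. Signal over background was not given.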
